A study of Mus musculus with 12 samples.

Results

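The importin alpha genes Kpna1, Kpna2, Kpna3, Kpna4 and Kpna6, their partner Kpnb1 and the retrogene Gm10184 were followed in cultured mouse dendritic cells (DCs) with and without a knockdown of the β2 integrin subunit CD18. They are 7 of the 41709 genes in the count tables and were chosen by name, Gm10184 because it had reads in libraries of one genotype. Their total and uniquely mapped gene reads, and the sums of these over the groups, are described here. Bone marrow-derived dendritic cells (BMDCs) were grown for 10 days with GM-CSF, MHCII-positive cells were selected with magnetic beads, and poly(A) RNA was sequenced in 12 libraries, 3 for each of 4 groups. Every mouse carried CD18 (Itgb2) alleles with loxP sites around exon 3, introduced in embryonic stem cells. CD18fl/fl BMDCs (labelled fl/fl Cre-) had no Cre, and CD18CD11c cKO BMDCs (labelled fl/fl Cre+, genotype CD18ΔCD11c) carried Cre under the CD11c promoter, which limits deletion to cells that use this promoter. Each genotype was left untreated or given 100 ng/mL LPS, a Toll-like receptor 4 ligand, for 24 h by the labels (overnight by the published methods). Neither the labels nor the methods say that replicates came from separate mice, so the p-values measure only the spread between these libraries. In bulk RNA, fewer cells of a type and less RNA per cell cannot be told apart.

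Importin alpha proteins are adaptors that recognise the basic nuclear localisation signal of a cargo protein. They carry the cargo through the nuclear pore bound to importin beta, the product of Kpnb1, and RanGTP releases it inside the nucleus. In DCs this route brings activated transcription factors such as NF-κB subunits into the nucleus, and importin alpha also takes part in spindle assembly in dividing cells, where Kpna2 is known to be abundant. A retrogene is a copy of a spliced mRNA inserted elsewhere in the genome, so it lacks the introns of its parent.

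The members lie on 7 chromosomal sites of the GRCm39 build. Kpna2 spans chr11:106879455-106890367 on the minus strand, and Kpnb1 lies on the same chromosome at chr11:97050540-97078707. Gm10184 spans chr17:90215890-90217877 on the minus strand, is a single exon of 1988 bases and is annotated as protein coding by GENCODE, which names it Kpna2rt. The other adaptors are Kpna1 (chr16:35799120-35857501), Kpna3 (chr14:61602660-61677323), Kpna4 (chr3:68974482-69034446) and Kpna6 (chr4:129537773-129566560). Of the 1979 bases that could be aligned between the canonical Kpna2 transcript (2054 bases in 11 exons) and Gm10184, 99.6% were identical. Both hold a coding region of 1590 bases, and 2 of their 8 substitutions lie in it. Both coding substitutions fall at the third position of a codon, in Kpna2 exon 7. Counting from the A of the start codon, they are A696G (chr11:106882129 in Kpna2, chr17:90217049 in Gm10184) and C741T (chr11:106882084 and chr17:90217004), with the base of Kpna2 written first. The coding sequence around them, read from the GENCODE transcripts of GRCm39, shows how little separates the parent from its copy, with the differing base in capitals:
Kpna2, coding bases 666 to 726: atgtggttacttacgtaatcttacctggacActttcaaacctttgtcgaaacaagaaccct
Gm10184, coding bases 666 to 726: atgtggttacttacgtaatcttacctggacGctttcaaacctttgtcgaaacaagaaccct
Kpna2, coding bases 711 to 771: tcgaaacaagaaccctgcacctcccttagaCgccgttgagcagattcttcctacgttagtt
Gm10184, coding bases 711 to 771: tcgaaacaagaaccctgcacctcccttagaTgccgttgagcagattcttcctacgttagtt
The first Kpna2 stretch crosses the junction of exons 6 and 7, which Gm10184 holds without an intron. The longest run without a difference was 1101 bases, far longer than the reads of 59 bases. Of all 59-base windows, 90.5% of those in the Kpna2 transcript also occur in Gm10184, and 95% of the windows across Kpna2 exon junctions do. No window of Kpna1, Kpna3, Kpna4, Kpna6 or Kpnb1 occurs in another transcript of the family. A read of Kpna2 or Gm10184 can therefore be placed at 1 gene only where it covers one of these differences, a Kpna2 intron or an end that only one transcript has, while the sum of the 2 genes does not depend on that placement.

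The libraries held 29689149 to 34037178 total gene reads, of which 95.1 to 96.2% mapped to 1 place. The floor used here, 3 reads, corresponds to 0.0881 to 0.101 CPM (gene reads scaled to a common library total). Itgb2, the targeted gene, had 379 to 420 CPM (scaled by edgeR's TMM factors throughout) in untreated CD18fl/fl libraries and 120.5 to 189 CPM in untreated CD18CD11c cKO libraries, and under LPS 167 to 267 CPM and 89.7 to 119 CPM. Its libraries separated by genotype within each treatment, as the labels name them. All 8 dendritic cell markers were detected in every group, with summed levels of 13261 to 33939 CPM over the libraries. All 8 macrophage and all 6 B cell markers were detected in every group too. Neutrophil markers summed to 8.82 to 193 CPM in all libraries but untreated CD18fl/fl replicate 1, where they reached 1314 CPM, and their part in the results was not tested. B cell markers summed to 0.665 to 2.64 CPM in replicate 3 of the 4 groups and to 8.83 to 139 CPM in replicates 1 and 2. Macrophage markers summed to 1884 to 2244 CPM in untreated and 1141 to 1253 CPM in LPS-treated CD18CD11c cKO libraries, and to 1680 to 2122 and 1468 to 1961 CPM in CD18fl/fl libraries. Mast cell and basophil markers summed to 165 and 115 CPM in CD18CD11c cKO replicate 3 without and with LPS. In replicates 1 and 2 of that genotype they summed to 21.9 to 42.6 CPM, and in CD18fl/fl libraries to 14.3 to 86.6 CPM. The part of the B cell, macrophage, and mast cell and basophil lists in the results was not tested. Same-numbered libraries deviated together, most clearly those of replicate 3. Values of a fit that includes the replicate number (a replicate block) are therefore given where they change a call. Replicate 3 weighed on the spread: for LPS in CD18fl/fl BMDCs edgeR called 263 genes higher and 233 lower with all replicates, and 3000 and 3140 with replicates 1 and 2 only.

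Reads of the pair were assigned to a different gene in each genotype. Gm10184 had 0 total gene reads in 5 of the 6 CD18fl/fl libraries and 62 in untreated CD18fl/fl replicate 3. In untreated CD18CD11c cKO libraries it had 3075, 1419 and 3303 reads, and under LPS 1118, 169 and 871 reads. The groups of the 2 genotypes did not overlap, and replicate 2 was the lowest of its group in both treatments. Since Gm10184 was picked for this pattern, its genotype difference is a description with no test. Summed over the group and set against the library sizes, it was 122-fold higher in untreated CD18CD11c cKO BMDCs than in CD18fl/fl BMDCs. The untreated value rested on the 62 reads of CD18fl/fl replicate 3, and without that library it was at least 852-fold, against the floor of 3 reads per library. Under LPS it was at least 247-fold higher, with 2158 reads against 0 and the same floor per library. These folds count reads as they were assigned, and most of those reads match both genes. They therefore set no lower limit for Gm10184 RNA itself. Unique Gm10184 reads summed to 1093 against 9 without LPS and to 289 against 0 with LPS.

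Kpna2, the parent gene, went the other way. It had 2623, 2116 and 1660 total gene reads in the untreated CD18fl/fl libraries and 1831, 1682 and 1391 under LPS. In CD18CD11c cKO BMDCs it had 13, 476 and 127 reads untreated and 13, 693 and 22 reads with LPS. All 6 CD18CD11c cKO libraries lay below all 6 CD18fl/fl libraries, and replicate 2 held most of the Kpna2 reads in both CD18CD11c cKO groups. The mean CPM was 8.51-fold higher in CD18fl/fl than in CD18CD11c cKO BMDCs without LPS and 4.84-fold higher with LPS, again as a description. Both values rested on replicate 2, and without that CD18CD11c cKO library they were 27.4-fold and 84.3-fold.

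**Figure D1:**
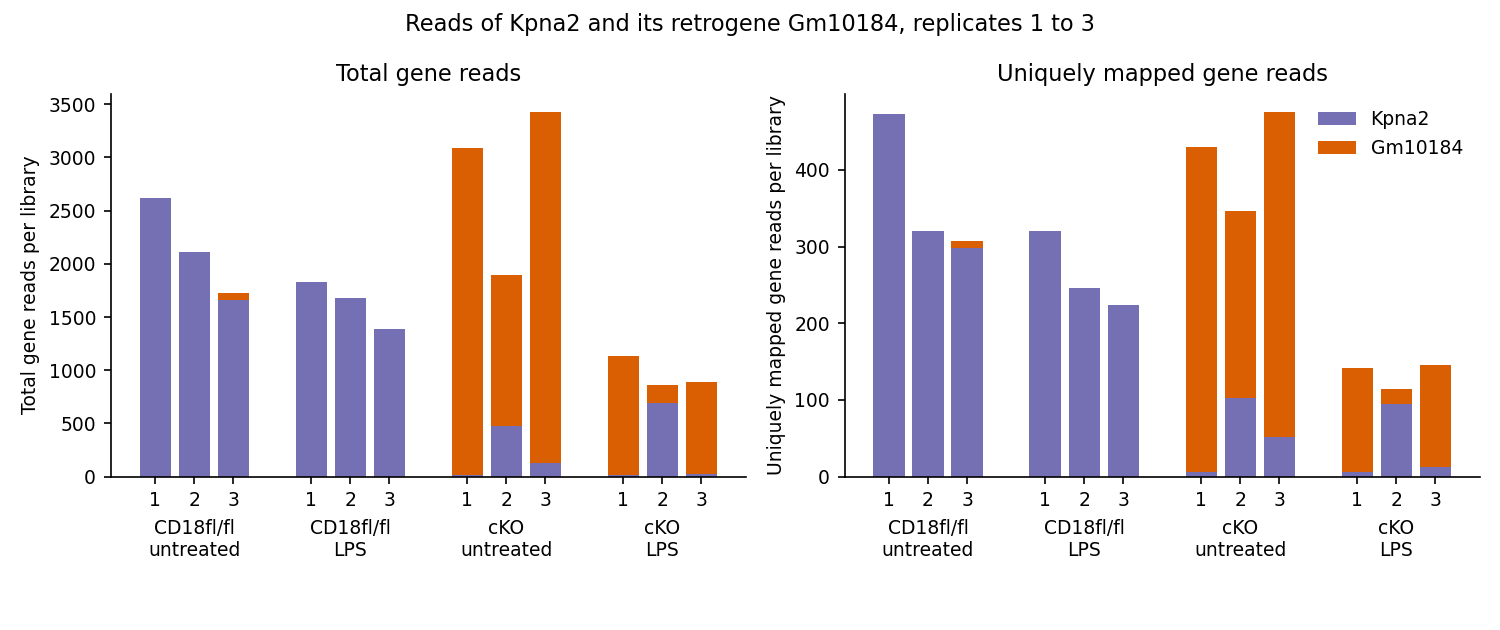
Reads assigned to Kpna2 and to Gm10184 in each of the 12 libraries, stacked, as total gene reads (left panel, y axis) and as uniquely mapped gene reads (right panel, y axis). CD18fl/fl bars are almost all Kpna2. CD18CD11c cKO bars (cKO) are mostly Gm10184, except for replicate 2 with LPS, which is mostly Kpna2. Within the CD18CD11c cKO groups replicate 2 holds the largest share of Kpna2 in each treatment.

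The share of Gm10184 in the summed reads of the pair described the same pattern within each library. It was 0% in 5 CD18fl/fl libraries, with upper exact (Clopper-Pearson) 95% limits of 0.141 to 0.265%, and 3.6% (2.77 to 4.59%) in untreated CD18fl/fl replicate 3. In the untreated CD18CD11c cKO group the share was 99.6% (99.3 to 99.8%) in replicate 1, 74.9% (72.9 to 76.8%) in replicate 2 and 96.3% (95.6 to 96.9%) in replicate 3. With LPS it was 98.9% (98.0 to 99.4%), 19.6% (17.005 to 22.416%) and 97.5% (96.3 to 98.4%). These intervals cover counting error only, and most of the reads counted in them match both genes. Replicate 2 was thus the mixed library of the CD18CD11c cKO genotype in both treatments, and its share moved from mostly Gm10184 to mostly Kpna2 between them. What this mixture comes from was not tested.

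Uniquely mapped reads, which cover a difference between the genes, gave like shares from fewer reads. Only 17.1% of the Kpna2 reads and 13.9% of the Gm10184 reads over all libraries were unique, against a median of 100% over the 13752 genes tested, and 227 of those genes (1.65%) had a lower share than Kpna2. Unique Gm10184 reads numbered 0, 0 and 9 in untreated CD18fl/fl libraries, 0 in all 3 CD18fl/fl libraries with LPS, 424, 244 and 425 in untreated CD18CD11c cKO libraries and 136, 19 and 134 in those with LPS. In the CD18fl/fl libraries with 0 unique Gm10184 reads, the upper exact 95% limits of the unique share were 0.777 to 1.63%. These are wider than the limits from total reads. The unique share of Gm10184 was 98.6%, 70.3% and 89.3% in the untreated CD18CD11c cKO libraries and 95.8%, 16.7% and 91.8% with LPS. Each of these 6 values lay below the one from total reads. The unique Kpna2 reads in these shares include intron reads. These were 5 of 6, 13 of 103 and 34 of 51 in the untreated CD18CD11c cKO libraries. With LPS they were 5 of 6, 3 of 95 and 11 of 12. Their part in the lower shares was not tested.

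Reads in Kpna2 introns are free of the retrogene, which has none. Unique intron reads of Kpna2 were 13, 1 and 4 in the untreated CD18fl/fl libraries and 5, 13 and 34 in the untreated CD18CD11c cKO libraries. With LPS they were 11, 11 and 21 in CD18fl/fl and 5, 3 and 11 in CD18CD11c cKO libraries. The genotypes overlapped in both treatments, and no fold is given from counts this low. Unique exon reads of Kpna2, in contrast, were 460, 320 and 294 against 1, 90 and 17 without LPS, and 310, 235 and 203 against 1, 92 and 1 with LPS. In CD18CD11c cKO replicates 1 and 3 the few unique Kpna2 reads thus lay mostly in introns, while replicate 2 had them mostly in exons.

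The sum of the 2 genes was far less different between the genotypes than either gene. It was 72.8, 53.1 and 46.0 CPM in untreated CD18fl/fl libraries and 109.9, 63.2 and 99.2 CPM in untreated CD18CD11c cKO libraries, and the ranges overlapped, although the CD18CD11c cKO library was higher in 3 of 3 same-numbered pairs. With LPS it was 58.8, 62.6 and 35.4 CPM in CD18fl/fl and 45.8, 38.7 and 28.9 CPM in CD18CD11c cKO libraries, which overlapped too, with the CD18CD11c cKO library lower in 3 of 3 pairs. The ratio of the group means, CD18CD11c cKO over CD18fl/fl, was 1.58 without LPS and 0.724 with LPS. No test is given for these, since the sum holds the gene that was picked.

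Levels were compared between genes on the TPM scale (transcripts scaled to a fixed total) deposited by the authors, which divides by exon length. The exon length in the files is 2633 bases for Kpna2, over all its transcripts, and 1988 bases for Gm10184, so the level of their sum depends on which of the pair the reads were assigned to, and its TPM is not compared between the genotypes. In untreated CD18fl/fl BMDCs the order was Kpna3 at 51.3 ± 9.42 TPM, the Kpna2 and Gm10184 sum at 48.5 ± 10.7, Kpna4 at 36.1 ± 2.70, Kpnb1 at 26.6 ± 4.18, Kpna1 at 20.5 ± 1.21 and Kpna6 at 8.46 ± 3.26 (mean ± SD, n = 3). Kpna3 and the sum, and the sum and Kpna4, did not differ beyond their spread, and the steps from Kpna4 to Kpnb1, Kpna1 and Kpna6 were without overlap. With LPS, Kpna4 (83.9 ± 1.10 TPM) and Kpna3 (78.7 ± 14.1 TPM) led in CD18fl/fl BMDCs and overlapped, and the sum followed at 35.1 ± 6.34 TPM without overlap. Kpna1 (22.3 ± 2.73 TPM) and Kpnb1 (20.1 ± 3.24 TPM) overlapped, and Kpna6 was last at 8.85 ± 3.92 TPM.

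In untreated CD18CD11c cKO BMDCs the sum was at 71.4 ± 22.4 TPM, Kpna3 followed at 46.5 ± 9.42 TPM and Kpna4 at 38.7 ± 2.99 TPM, and each of these overlapped with the next of the 3. Kpna1 at 13.6 ± 1.45 TPM and Kpnb1 at 12.7 ± 1.97 TPM overlapped as well, above Kpna6 at 4.54 ± 2.34 TPM. With LPS, Kpna4 (83.1 ± 15.5 TPM) and Kpna3 (67.5 ± 13.6 TPM) overlapped at the top, followed without overlap by the sum (23.9 ± 5.88 TPM), Kpna1 (15.0 ± 1.84 TPM), Kpnb1 (11.2 ± 0.83 TPM) and Kpna6 (5.49 ± 2.42 TPM). With the Kpna2 length used for both genes of the pair, the sum was at 48.3, 35.1, 54.8 and 19.3 TPM in untreated CD18fl/fl, LPS-treated CD18fl/fl, untreated CD18CD11c cKO and LPS-treated CD18CD11c cKO BMDCs, and in the last of these it overlapped with Kpna1. With the Gm10184 length for both it was at 64.0, 46.5, 72.6 and 25.5 TPM, and it then came first in untreated BMDCs of both genotypes. With Kpna2 and Gm10184 taken as a sum, Kpna6 was lowest in all 4 groups. Kpna7, the oocyte-enriched adaptor, is no member and had 0 reads in 11 of the 12 libraries and 7 reads in one.

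**Figure D2:**
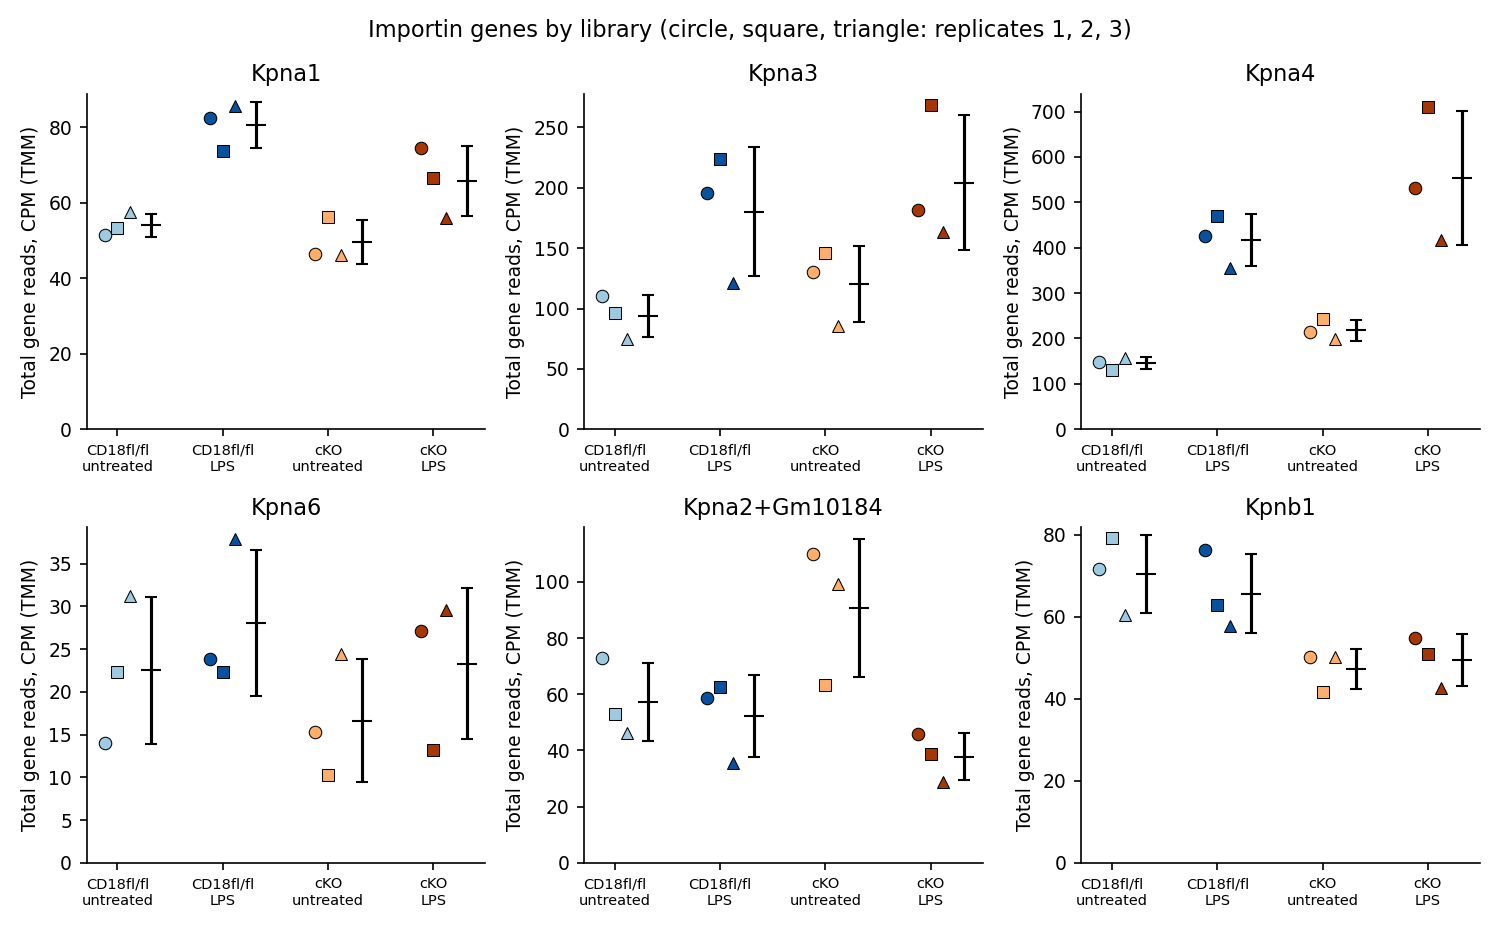
Total gene reads of the importin genes in CPM after TMM scaling, by group, with one point per library (circle, square and triangle for replicates 1, 2 and 3) and the mean ± SD of 3 libraries beside them. Kpna4 with LPS lies between 355 and 711 CPM, above every untreated library, and the sum of Kpna2 and Gm10184 is lowest in CD18CD11c cKO BMDCs with LPS.

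The comparison of LPS with untreated BMDCs addresses how activation changes the import adaptors, and Kpna4 was the member that rose. In CD18fl/fl BMDCs it went from 147, 131 and 158 CPM to 425, 471 and 355 CPM, a log2 fold change of 1.52 ± 0.24 (SE, edgeR quasi-likelihood test, Benjamini-Hochberg adjusted p = 0.0258), or 2.88-fold. In CD18CD11c cKO BMDCs it went from 214, 244 and 198 CPM to 532, 711 and 418 CPM, a log2 fold change of 1.28 ± 0.26 (adjusted p = 0.0451 by edgeR), or 2.44-fold. All libraries with LPS were above all untreated libraries in both genotypes. Kpna4 kept its direction in all 18 alternatives in each genotype (log2 1.19 to 1.74 and 1.06 to 1.42). Its call depended on single libraries. In CD18fl/fl BMDCs the adjusted p was 0.141 without untreated replicate 1, 0.155 without untreated replicate 2, 0.127 without LPS replicate 1 and 0.123 without LPS replicate 2, and in those fits edgeR called 0 of all genes. In CD18CD11c cKO BMDCs it was 0.169, 0.144 and 0.085 without untreated replicates 1, 2 and 3, and 0.142 and 0.174 without LPS replicates 1 and 2.

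Kpna3, the closest paralogue of Kpna4, shifted the same way by less. It had 110.0, 96.3 and 74.9 CPM in untreated CD18fl/fl libraries and 196, 224 and 121 CPM with LPS, a log2 fold change of 0.95 ± 0.31. In CD18CD11c cKO libraries it had 130.0, 146 and 85.5 CPM untreated and 181, 268 and 163 CPM with LPS, a log2 fold change of 0.71 ± 0.30. The groups did not overlap in either genotype. Without the replicate block the edgeR adjusted p was 0.132 and 0.236, and with it 0.0469 (log2 0.92 ± 0.22) and 0.037 (log2 0.72 ± 0.19), so that the block made both calls. With replicates 1 and 2 only, Kpna3 was called in CD18fl/fl BMDCs (log2 1.02 ± 0.17, edgeR adjusted p = 0.000389), beside 3000 of 12924 genes called higher. In CD18CD11c cKO BMDCs it was not called with these replicates.

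Counted over Kpna1, Kpna3, Kpna4, Kpna6, Kpnb1 and the sum of Kpna2 and Gm10184, 1 of 6 was called higher and 0 of 6 lower with LPS in CD18fl/fl BMDCs, where 2.06% of the 12744 genes tested were called higher and 1.83% lower. With the replicate block 2 of 6 were called higher and 0 of 6 lower, beside 6.33% and 6.43% of all genes. DESeq2 called 1 of 6 higher and 0 lower, beside 969 and 826 of 18927 genes. An unadjusted edgeR p under 0.05 was found for 3 of 6, beside 3034 of 12744 genes. In CD18CD11c cKO BMDCs 1 of 6 was called higher and 0 of 6 lower, beside 2.23% and 1.76% of 12687 genes. With the block these were 2 of 6 and 1 of 6, beside 10.2% and 9.93%. The ranges with LPS lay wholly above the untreated ones for Kpna1, Kpna3 and Kpna4 in CD18fl/fl BMDCs (13.6% of all genes) and for Kpna3 and Kpna4 in CD18CD11c cKO BMDCs (14.8%), and wholly below for the sum in CD18CD11c cKO BMDCs (13.4%).

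The sum of Kpna2 and Gm10184 was the member with the lowest fold change by LPS, and only in CD18CD11c cKO BMDCs was it called under any setting. Its log2 fold change there was -1.31 ± 0.29 (95% interval -1.99 to -0.64), with an edgeR adjusted p of 0.0531. With the replicate block it was -1.30 ± 0.23 (adjusted p = 0.0101), and it was past the threshold in 10 of 18 alternatives, with negative values in all 18 (-1.55 to -1.13). The libraries with LPS (28.9 to 45.8 CPM) all lay below the untreated ones (63.2 to 109.9 CPM). In CD18fl/fl BMDCs the log2 fold change of the sum was -0.13 ± 0.31 (95% interval -0.85 to 0.59, edgeR adjusted p = 0.831), lower in 2 of 3 same-numbered pairs, and the ranges overlapped. Whether the LPS difference of the sum differs between the genotypes was not tested, since the sum holds the gene picked for its genotype pattern.

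Taken by itself, Gm10184 in CD18CD11c cKO BMDCs fell from 109.5, 47.3 and 95.5 CPM to 45.3, 7.59 and 28.2 CPM with LPS when the replicate block was used (log2 -1.92 ± 0.29, edgeR adjusted p = 0.00641). Without the block the value was -1.68 ± 0.62 (adjusted p = 0.178). Kpna2 had 0.463, 15.9 and 3.67 CPM untreated and 0.527, 31.1 and 0.712 CPM with LPS, and a log2 fold change of 0.59 ± 1.62 (adjusted p = 0.879), which reversed to -0.38 ± 0.64 with the block and was as wide as -3.44 to 2.29 when single libraries were left out.

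**Figure D3:**
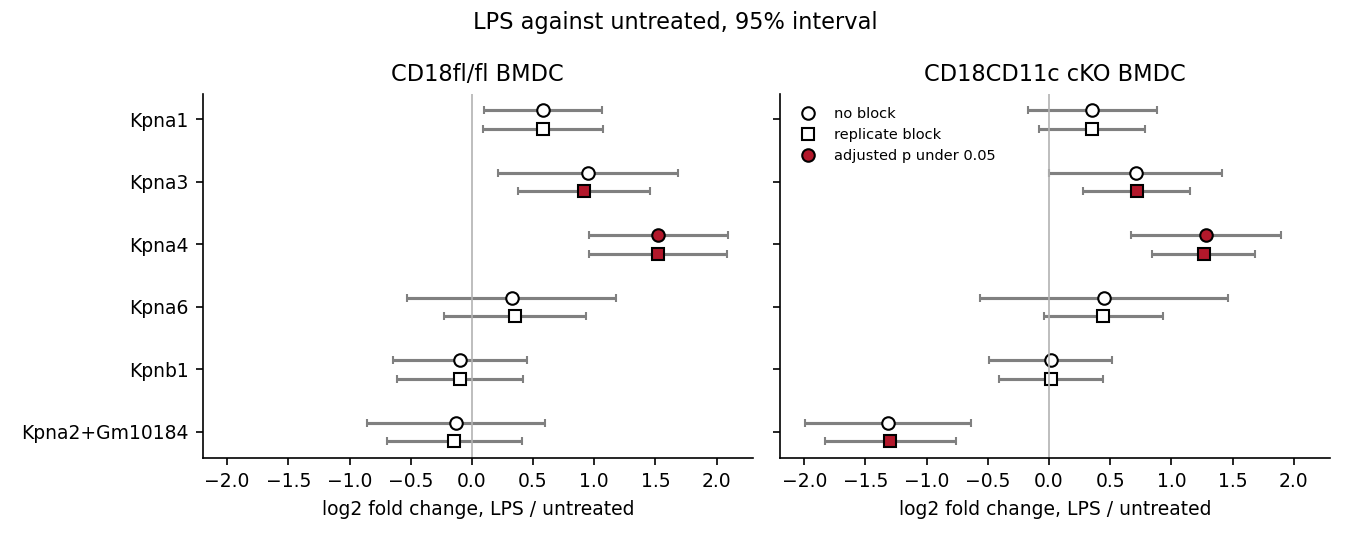
Log2 fold changes of LPS against untreated BMDCs for Kpna1, Kpna3, Kpna4, Kpna6, Kpnb1 and the sum of Kpna2 and Gm10184 (x axis, log2 scale), with 95% intervals from edgeR, for CD18fl/fl (left) and CD18CD11c cKO (right). Circles are fits without and squares fits with the replicate block, and filled symbols have an adjusted p under 0.05: Kpna4 is filled in every fit, Kpna3 only with the block, and the sum only with the block in CD18CD11c cKO BMDCs.

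The remaining members gave no call with LPS in either genotype in fits of their own 6 libraries. Kpna1, an adaptor of the same subfamily as Kpna6, had 51.6, 53.2 and 57.4 CPM in untreated and 82.5, 73.8 and 85.5 CPM in LPS-treated CD18fl/fl libraries (log2 0.58 ± 0.20, 95% interval 0.10 to 1.07, edgeR adjusted p = 0.151). It was called with replicates 1 and 2 only (log2 0.58 ± 0.16, adjusted p = 0.0107) and in a fit of all 12 libraries with the block (adjusted p = 0.0329). CD18fl/fl replicate 3 with LPS held 1038 intron reads of Kpna1 that mapped to several places, against at most 87 in any other library, and with unique gene reads the log2 fold change was 0.43 ± 0.22. In CD18CD11c cKO BMDCs the Kpna1 value was 0.35 ± 0.23 (-0.17 to 0.88, adjusted p = 0.425). Kpna6 rested on the fewest reads, 295 to 1490 a library, and had log2 fold changes of 0.32 ± 0.36 (-0.53 to 1.18) and 0.45 ± 0.43 (-0.57 to 1.46), with the replicates spread more than the treatments. Kpnb1, the carrier that all these adaptors share, had -0.10 ± 0.23 (-0.64 to 0.45) and 0.01 ± 0.22 (-0.49 to 0.52), with 57.8 to 79.3 CPM in CD18fl/fl libraries of both treatments and 41.6 to 54.8 CPM in CD18CD11c cKO libraries.

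The comparison of genotypes is given for the 5 members that did not enter the choice of Gm10184. CD18CD11c cKO and CD18fl/fl BMDCs differ in the presence of Cre as well as in CD18. No group had Cre without the loxP sites, so the knockdown and Cre itself cannot be told apart. Without LPS, edgeR called 0 of 5 higher and 0 of 5 lower, beside 0 of all 12876 genes (0.0%), of which 2159 had an unadjusted p under 0.05, while DESeq2 called 467 genes higher and 42 lower but none of these members. With the replicate block 1 of 5, Kpna4, was called higher and 0 of 5 lower, where 12.1% and 8.16% of all genes were. Kpna4 was at 145 ± 13.5 CPM in CD18fl/fl and 219 ± 23.2 CPM in CD18CD11c cKO BMDCs (log2 0.65 ± 0.19, 95% interval 0.21 to 1.09, edgeR adjusted p = 0.180 without and 0.0256 with the block). In TMM-scaled CPM the genotypes did not overlap for Kpna4 (11.7% of all genes lay wholly higher). On the TPM scale Kpna4 was at 36.1 ± 2.70 in untreated CD18fl/fl and 38.7 ± 2.99 in untreated CD18CD11c cKO BMDCs. These TPM ranges overlapped, so the separation depended on the scale. The log2 value of Kpna4 without LPS was positive in all 18 alternatives, but its size varied from 0.249 to 0.976. With LPS the Kpna4 difference was 0.38 ± 0.28 (-0.27 to 1.03, adjusted p = 0.716), and the ranges overlapped.

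Kpnb1 had lower values in CD18CD11c cKO BMDCs in both treatments, without reaching the threshold in the edgeR fits. It had 71.7, 79.3 and 60.4 CPM in untreated CD18fl/fl and 50.2, 41.6 and 50.1 CPM in untreated CD18CD11c cKO libraries (log2 -0.52 ± 0.20, 95% interval -0.99 to -0.05, adjusted p = 0.256, with the block 0.0674). With LPS it had 76.4, 62.9 and 57.8 against 54.8, 51.0 and 42.6 CPM (log2 -0.44 ± 0.22, -0.96 to 0.09, adjusted p = 0.587, with the block 0.102). The CD18CD11c cKO libraries lay wholly below the CD18fl/fl ones in each treatment, as did 13.1% of all genes without and 8.09% with LPS. Only DESeq2 with the block called it, without LPS (adjusted p = 0.0344).

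Kpna1, Kpna3 and Kpna6 were not called between the genotypes, and their ranges overlapped in both treatments. Without LPS these were -0.07 ± 0.18 (-0.49 to 0.35), 0.41 ± 0.27 (-0.24 to 1.07) and -0.37 ± 0.40 (-1.33 to 0.58) on the log2 scale, in this order, and with LPS -0.33 ± 0.22 (-0.83 to 0.18), 0.15 ± 0.32 (-0.61 to 0.92) and -0.29 ± 0.38 (-1.20 to 0.62). Kpna3 was higher in CD18CD11c cKO BMDCs in 3 of 3 same-numbered pairs without LPS (with the block 0.40 ± 0.15, 95% interval 0.06 to 0.74, edgeR adjusted p = 0.0897), and Kpna1 was lower in 3 of 3 pairs with LPS. With LPS edgeR called 0 of these 5 members and 0 of 12441 genes (0.0%), with 0 members and 1212 genes at an unadjusted p under 0.05. DESeq2 called 144 genes higher and 9 lower, and 0 members. With the block 0 of 5 were called in either direction, where 6.98% of all genes were called higher and 3.16% lower. Scaling by library size in place of TMM moved the median of all genes to -0.44 without and -0.37 with LPS, and Kpna1 to -0.46 and -0.60.

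**Figure D4:**
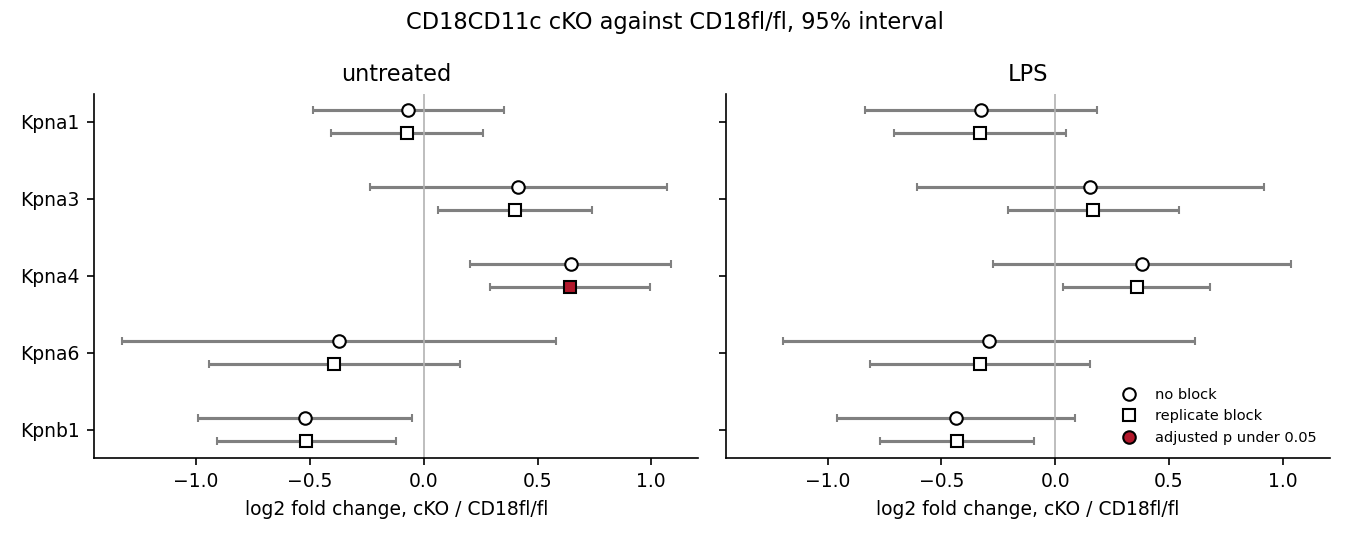
Log2 fold changes of CD18CD11c cKO against CD18fl/fl BMDCs for the 5 members that were not chosen for their genotype difference (x axis, log2 scale), with 95% intervals from edgeR, untreated (left) and with LPS (right). Symbols are as in the plot of LPS fold changes, and only Kpna4 in untreated BMDCs with the replicate block has an adjusted p under 0.05, while Kpnb1 is negative in all 4 fits.

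The interaction term tests whether the LPS difference differs between the genotypes. Over all genes, edgeR called 0 of 13752 interactions (0.0%), DESeq2 called 1, and 97 had an unadjusted edgeR p under 0.05. Kpna1, Kpna3, Kpna4, Kpna6 and Kpnb1 were among neither the calls nor these 97. Kpna4 had -0.18 ± 0.33 (95% interval -0.90 to 0.55) and Kpna3 -0.18 ± 0.44 (-1.14 to 0.78) on the log2 scale.

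The other genes of nuclear transport were counted from lists of named genes, and with the replicate block these counts stand beside 6.33% of all genes higher and 6.43% lower with LPS in CD18fl/fl BMDCs, and 10.2% and 9.93% in CD18CD11c cKO BMDCs. The list of import receptors of the importin beta family had 12 tested genes, among them the member Kpnb1 and Snupn. Snupn is an adaptor and not itself of that family. Of these 12, edgeR called 0 with LPS in either genotype. The medians were -0.64 (CD18fl/fl) and -0.43 (CD18CD11c cKO) on the log2 scale beside -0.02 and -0.01 over all genes. With the replicate block 1 and 3 of 12 fell, among them Ipo5 in both (log2 -0.90 ± 0.21, edgeR adjusted p = 0.0434, and -0.88 ± 0.18, adjusted p = 0.0161), which imports ribosomal proteins and histones. With an offset for exon length beside the block, 0 of 12 were called in CD18fl/fl BMDCs (Ipo5 log2 -0.72 ± 0.19, adjusted p = 0.0597) and 3 in CD18CD11c cKO BMDCs, and with replicates 1 and 2 only 6 of 12 were called lower and 1 higher in CD18fl/fl BMDCs. Over all genes, the length offset called 788 of 12122 lower in CD18fl/fl and 1152 of 12049 in CD18CD11c cKO BMDCs. Replicates 1 and 2 only gave 3000 higher and 3140 lower of 12924 genes in CD18fl/fl BMDCs. Ipo9 (-0.996 ± 0.23) and Ipo11 (-1.04 ± 0.25) fell in CD18CD11c cKO BMDCs. None of 7 exportins, which carry cargo out of the nucleus, was called with LPS with or without the block, and with replicates 1 and 2 only 1 was called higher and 2 lower in CD18fl/fl BMDCs. The medians of this list were -0.36 and -0.21.

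The Ran cycle supplies the RanGTP that unloads importins, and 7 of its genes were tested. Without the block 0 of 7 were called with LPS. With it Ranbp1, a cofactor of RanGAP, fell in both genotypes (log2 -1.16 ± 0.23, edgeR adjusted p = 0.0297, and -1.02 ± 0.17, adjusted p = 0.00889), and Ranbp2, a nucleoporin that binds Ran at the cytoplasmic side of the pore, rose in CD18CD11c cKO BMDCs (1.09 ± 0.23, adjusted p = 0.0176). Of 27 tested nucleoporins 0 were called without the block. With it 2 fell in CD18fl/fl BMDCs, Ndc1 (-1.39 ± 0.32) and Nup85 (-0.94 ± 0.23), and in CD18CD11c cKO BMDCs 3 fell, Nup85 (-1.26 ± 0.20), Ndc1 (-1.79 ± 0.36) and Nup93 (-0.69 ± 0.20), while Nup88 rose (0.94 ± 0.20). With replicates 1 and 2 only, 4 nucleoporins were called higher and 9 lower in CD18fl/fl BMDCs, beside 3000 and 3140 of 12924 genes. The list medians were -0.38 and -0.25 without the block.

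Between the genotypes, no gene of these transport lists was called by edgeR without the block. The counts with it stand beside 12.1% of all genes higher and 8.16% lower without LPS, and 6.98% and 3.16% with LPS. With it Ran itself, the small GTPase that drives the cycle, was higher in CD18CD11c cKO BMDCs both untreated (694 ± 93.2 against 294 ± 67.0 CPM, log2 1.31 ± 0.14, adjusted p = 0.00298) and with LPS (719 ± 216 against 342 ± 83.9 CPM, log2 1.03 ± 0.13, adjusted p = 0.00814). Ranbp1 was higher (0.52 ± 0.14) and Ranbp2 lower (-0.63 ± 0.14) without LPS. Of 27 nucleoporins 4 were higher and 6 lower without LPS, and 2 higher and 1 lower with LPS. Nup37 (1.41 ± 0.19 and 1.40 ± 0.21) and Nup35 (1.17 ± 0.17 and 1.06 ± 0.21) were higher in both treatments, and Nup98 was lower in both (-0.62 ± 0.14 and -0.60 ± 0.15). Without LPS, Sec13 was also higher (0.65 ± 0.14), and Nup62 (-0.57 ± 0.14) and Tpr (-0.64 ± 0.16) were lower. Of the import receptor list, the adaptor Snupn was higher (0.74 ± 0.19) and Tnpo3 lower (-0.55 ± 0.15) without LPS, and of the exportins Xpot was lower (-0.53 ± 0.15). With the length offset beside the block, Ran, Nup37 and Nup35 were still called in both treatments and Nup62 without LPS. The calls of Ranbp1, Ranbp2, Nup98, Sec13, Tpr, Snupn, Tnpo3 and Xpot were lost, and 2 nucleoporins were higher and 2 lower without LPS. The import receptor Tnpo1 (0.76 ± 0.17, edgeR adjusted p = 0.0253) and the exportin Xpo1 (0.66 ± 0.16, adjusted p = 0.0325) were newly called higher without LPS. Over all genes this fit called 1005 higher and 546 lower of 12236 without LPS.

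Mitosis genes were counted because Kpna2 is known to be used in dividing cells. Of 25 tested, edgeR called 5 lower and 0 higher with LPS in CD18fl/fl BMDCs and 7 lower and 0 higher in CD18CD11c cKO BMDCs, with medians of -1.28 and -2.51 on the log2 scale. With the block 7 and 20 of 25 were called lower, beside 6.43% and 9.93% of all genes. With replicates 1 and 2 only 19 and 15 were, beside 3140 of 12924 and 1028 of 12872 genes. In CD18fl/fl BMDCs the leading ones were Ube2c (-5.82 ± 0.96), Ccna2 (-4.58 ± 0.80) and Kif23 (-4.02 ± 0.76). With LPS these averaged 0.108, 0.377 and 0.278 CPM, near the floor of 0.0881 to 0.101 CPM, so the sizes of their falls rest on few reads. In CD18CD11c cKO BMDCs they were Ccnb1 (-3.66 ± 0.52), Kif20a (-3.94 ± 0.70) and Birc5 (-2.94 ± 0.56), at 3.44, 0.812 and 5.12 CPM with LPS. The products of these genes drive cyclin-dependent kinase activity, cyclin breakdown or cytokinesis. The summed level of the list was 367, 208 and 134 CPM in untreated CD18fl/fl libraries, 257, 312 and 119 CPM in CD18fl/fl libraries with LPS, 578, 266 and 767 CPM in untreated CD18CD11c cKO libraries and 470.4, 238 and 187 CPM with LPS. As for the sum of Kpna2 and Gm10184, the mean was highest in the untreated CD18CD11c cKO group and replicate 2 was the lowest library of that group, and the part of these genes in the result on the sum was not tested. Between the genotypes without LPS all 25 had positive values (median 1.16), 0 were called without the block and 5 higher with it, led by Cenpa (1.11 ± 0.22), Ccnb1 (2.27 ± 0.54) and Cdk1 (1.29 ± 0.32), beside 12.1% of all genes. This rested on replicate 3: with replicates 1 and 2 only the median was 0.39, 21 of 25 were positive and 0 were called. With LPS the median of the 23 tested was 0.11, and with the block only Birc5 was called, higher at 2.01 ± 0.50.

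Genes whose log2 CPM ran most like that of the members over the 12 libraries are named here as a description, since these libraries share genotype, treatment and replicate number. For the sum of Kpna2 and Gm10184 they were Rpa1 (Pearson r = 0.913), Mcm5 (0.899), Racgap1 (0.898), Top2a (0.894) and Clic1 (0.881). For Kpna2 alone they were Kcnh6 (0.915), Fnip2 (0.908), Cd68 (0.904), Pbx2 (0.893) and Scaf8 (0.892), and for Gm10184 alone Naca (0.984) and the ribosomal protein genes Rpl10a (0.977), Rps3 (0.974), Rps10 (0.970) and Rpl17 (0.969). Over the 25 mitosis genes the median r was 0.62 with the sum, but -0.24 with Kpna2 and 0.30 with Gm10184 taken separately, beside medians of -0.06 to 0.04 over all genes. For Kpnb1 they were Pip4p1 (0.942), Eya3 (0.928), Virma (0.917), Psd4 (0.915) and Cdipt (0.913). Among Kpna1, Kpna3, Kpna4, Kpna6, Kpnb1 and the sum the highest r was between Kpna3 and Kpna4 (0.892), and the lowest between Kpna1 and the sum (-0.55).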

How the data were processed

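Poly(A) libraries were sequenced as single reads of 59 bases. The authors aligned them with the CLC Genomics Workbench and deposited, per gene and library, raw counts of total and uniquely mapped gene, exon, junction and intron reads. Deposited TPM values are the authors' own, per exon length. The labels name GRCm38, but the published methods and the files' coordinates are GRCm39, since 70.7% of 41182 gene IDs share a start or end with GENCODE M39. Transcripts were read from GENCODE M39. Counts were tested as deposited with edgeR 4.0.16 in R 4.3.3 (TMM, minimum count 10, quasi-likelihood test, Benjamini-Hochberg over all genes, threshold 0.05), with the 6 libraries compared, and all 12 for the interaction. Kpna2 and Gm10184 were also fitted as 1 summed row in their place. The tests were checked on simulated counts. How reads with several matches were assigned is not given in the sources used here.

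Replicate numbers come from the sample titles and were taken to pair the libraries. The deviations from group means correlated in all 12 same-numbered pairs (Pearson r across 13752 genes of 0.265 to 0.716). Replicates 1 and 2 also correlated across numbers (0.154 to 0.334), and replicate 3 was negative with both (-0.571 to -0.321). The correlations thus set replicate 3 apart, and they do not establish that replicates 1 and 2 pair by number. All 66 library pairs differed beyond sampling noise. Members and gene lists were chosen with earlier results of these data known. Every member is named, and from the lists up to 3 genes per direction with the smallest adjusted p, besides Itgb2 and the 5 genes most correlated with Kpna2, Gm10184, their sum and Kpnb1. Alternatives were DESeq2 1.42.0, other scalings, no filter, unique reads, the replicate block, all 12 libraries, a length offset with the block, replicates 1 and 2 only, and single libraries left out. Fits of total exon reads and of all 12 libraries with the block, and 1 exon length for Kpna2 and Gm10184, were added after seeing the data.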

Additional observations from a re-analysis of the deposited data

How the results depend on the processing

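The count of members called higher with LPS, 1 of 6 in each genotype, was 2 in CD18fl/fl and 2 in CD18CD11c cKO BMDCs with the replicate block alone, with DESeq2 under that block, and with an offset for exon length beside it. In fits of all 12 libraries with the block, chosen after seeing the data, it was 3 and 2, and with replicates 1 and 2 only it was 3 in CD18fl/fl BMDCs. Leaving out single libraries gave 0 to 2 in CD18fl/fl and 0 to 1 in CD18CD11c cKO BMDCs. Over all genes, in CD18fl/fl and CD18CD11c cKO BMDCs, the block called 807 of 12744 and 1300 of 12687 higher. DESeq2 with the block called 1599 of 18927 and 1732 of 19186, and the length offset 904 of 12122 and 1531 of 12049. All 12 libraries with the block gave 1670 and 1621 of 13752, and replicates 1 and 2 only gave 3000 of 12924 in CD18fl/fl BMDCs. Fits without single libraries called 0 to 1613 and 0 to 545 genes higher. The count called lower in CD18CD11c cKO BMDCs, 0 without the block, was 1 (the sum of Kpna2 and Gm10184) with library size scaling, no filter on low counts, unique gene reads, the block, DESeq2 with and without the block, all 12 libraries with and without the block, the length offset with the block, and replicates 1 and 2 only. Over all genes these fits called from 235 of 12484 (unique gene reads) to 1645 of 19186 (DESeq2 with the block) lower. Between untreated genotypes the count higher, 0, was 1 (Kpna4) with the block, DESeq2 with the block, the length offset with the block and replicates 1 and 2 only, and the count lower, 0, was 1 (Kpnb1) with DESeq2 and the block. In this order, the fits called 1555 of 12876, 1787 of 18793, 1005 of 12236 and 1034 of 13068 genes higher. DESeq2 with the block called 1266 of 18793 lower. Among the members' tested results, which leave out the genotype differences of Kpna2, Gm10184 and their sum, the block changed no other call but that of Gm10184 alone with LPS. The cause of these changes was not tested. For single genes, 417 alternative values kept their side of the threshold and direction or were never called, 31 passed it and 9 lost it, all 9 for Kpna4 with LPS when 1 library was left out. From unique exon reads the mean TPM was 21.7 for Kpna1 and 8.57 for Kpna2 in untreated CD18fl/fl BMDCs, 5.73 for Kpna2 and 89.0 for Kpna4 in CD18fl/fl BMDCs with LPS, and 10.1 and 2.66 for Gm10184 in CD18CD11c cKO BMDCs without and with LPS; for Kpna2 and Gm10184 this follows from counting unique reads only. With the Gm10184 exon length for both genes, chosen after seeing the data, the mean TPM of their sum was 64.0 and 46.5 in CD18fl/fl BMDCs without and with LPS. The unique-read share of Gm10184 in CD18CD11c cKO libraries was 98.6%, 70.3% and 89.3% untreated and 95.8%, 16.7% and 91.8% with LPS. Library size scaling moved the median of all genes to -0.32 and -0.23 on the log2 scale for LPS in CD18fl/fl and CD18CD11c cKO BMDCs. Calls over all genes for LPS rose from 263 higher and 233 lower to 807 and 820 with the block in CD18fl/fl BMDCs, and from 283 and 223 to 1300 and 1260 in CD18CD11c cKO BMDCs. With 3 reads as the floor, Gm10184 below about 0.1 CPM could not be seen in CD18fl/fl libraries.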

Other observations

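Chosen after the values were seen, 1 other gene of the tables shared with Gm10184 at least 100 reads in all 6 CD18CD11c cKO libraries and a median of 0 reads in CD18fl/fl libraries. This was Gm42031, a long non-coding RNA gene, with 2079 to 4647 total gene reads in the CD18CD11c cKO libraries. In CD18fl/fl BMDCs it had 0 reads in replicates 1 and 3 of both treatments, and 2987 (untreated) and 1764 (LPS) reads in replicate 2. Replicate 2 was therefore the library number that departed from its genotype for Gm42031 in CD18fl/fl BMDCs and for the mixture of Kpna2 and Gm10184 in CD18CD11c cKO BMDCs. No gene met the opposite condition, with at least 100 reads in all 6 CD18fl/fl libraries and a median of 0 in CD18CD11c cKO libraries.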
